A study of Mus with 18 samples.

Results

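The libraries labelled LPS-MIC-1 were compared with those labelled control in the cultured-cell experiment, gene by gene, from FPKM values (fragments counted per length of transcript and per size of the library). The comparison holds 6 of the 18 libraries of the series, 3 per group, and 10936 of the 21401 gene symbols of the cultured-cell table, those with a mean over 1 FPKM in these 6 libraries. The study asked whether moringa isothiocyanate-1 (MIC-1), a plant isothiocyanate, counters the inflammation that lipopolysaccharide (LPS), a component of bacterial outer membranes, evokes in C2C12 cells and in mouse gastrocnemius muscle. C2C12 is a line of mouse myoblasts. By their labels the control cells had a saline vehicle, and the LPS-MIC-1 cells had 1 μg/mL of LPS with 10 μM of MIC-1 for 24 h. A further 3 cultured-cell libraries, labelled LPS, had 1 μg/mL of LPS without MIC-1 and serve below only as a reference level. Cell type markers were not summarised for them here. The study's methods name ethanol as the vehicle and a range of MIC-1 concentrations, and its account of the transcriptome names a lower one than the labels, so the dose behind the LPS-MIC-1 libraries is uncertain. All 6 libraries are labelled wild type and C2C12, which is 1 cell line, and nothing states that the 3 libraries of a group came from separate cultures, so the p-values measure the spread between libraries, which may be technical.

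Myoblasts are the proliferating precursors of skeletal muscle. They are committed by the MyoD family of transcription factors, adhere through cadherins and integrins, build a collagen and laminin matrix, and fuse into fibres that hold actin, myosin and troponin. Macrophages descend from the myeloid branch of blood formation under PU.1 and the CSF1 receptor. They carry Toll-like, Fc and complement receptors, move with a leukocyte set of actin regulators, and digest what they take up in lysosomes with the help of lysozyme and the phagocyte oxidase.

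The label C2C12 was checked against marker genes of both cell types. The 14 macrophage markers found had a median of 234, 237 and 228 FPKM in control replicates 1, 2 and 3, and of 4.85, 0.373 and 0.135 FPKM in LPS-MIC-1 replicates 1, 2 and 3. All 14 were over 1 FPKM in each control library. The 11 myoblast markers had medians of 0, 0 and 0.0293 FPKM in the control libraries and of 41.4, 35.4 and 43.7 FPKM in the LPS-MIC-1 libraries, where 10 of 11 exceeded 1 FPKM. The exception was Pax7, which marks muscle stem cells and stood at 0.0680, 0.111 and 0 FPKM. The 10 mesenchymal markers reached a median of at most 0.00863 FPKM in a control library and of 27.6 to 32.0 FPKM in the LPS-MIC-1 libraries. The markers thus go against the label C2C12 in the control libraries, which carried a macrophage profile, and match it in the LPS-MIC-1 libraries. Group names are used here as the labels give them. In these 6 libraries the treatment, the vehicle and the kind of cell cannot be told apart.

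Markers of other cells were low in both groups. Summed over their markers, endothelial, dendritic, mast, adipocyte and erythroid lists stayed at or under 0.997 FPKM in every library, the neutrophil list reached 4.55 FPKM at most, and the T-cell list reached 7.18 FPKM. Most of the T-cell sum was Cd3d, a chain of the T-cell receptor complex, in LPS-MIC-1 replicates 1 and 2, at 6.69 and 5.32 FPKM, against 0.938 FPKM in replicate 3. Single genes also led other lists. Tubb3, a tubulin of neurons, was at 77.6, 79.5 and 105.9 FPKM in the LPS-MIC-1 libraries while the other 3 neuronal markers were near 0. Krt19, an epithelial keratin, was at 9.60, 12.02 and 11.4 FPKM in the LPS-MIC-1 libraries, and in replicate 3 of them 3 of the 8 epithelial markers exceeded 1 FPKM. Blnk, a B-cell adaptor, was at 58.6 to 74.8 FPKM in all 6 libraries, with the other B-cell markers close to 0. The mature fibre markers summed to 28.4 to 37.7 FPKM in the control libraries, most of it Tnni2, a troponin of fast fibres, and to 693 to 986 FPKM in the LPS-MIC-1 libraries.

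The control libraries resembled each other more closely than the LPS-MIC-1 libraries did. Pearson's r of log2(FPKM + 0.1) across the tested genes was 0.987 to 0.989 between control libraries, 0.933 to 0.950 between LPS-MIC-1 libraries and 0.449 to 0.507 between groups. Genes are not independent replicates, so these values are descriptions. The number of reads per library is not stated. The relative worth of 1 read was estimated as the most frequent ratio between 2 libraries, over genes above 0 and under 0.5 FPKM in both. Against control replicate 1 it was 1.39, 1.13 and 2.14 in LPS-MIC-1 replicates 1, 2 and 3. Only 159 of 1353, 116 of 1375 and 181 of 1302 genes lay at these ratios. By this estimate replicate 3 of LPS-MIC-1 had the least depth. A value near 0 stands for a few reads at most, and FPKM without read numbers allow no counting interval.

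LPS-MIC-1 replicate 1 stood apart in its macrophage genes. Genes over 50 FPKM in the control libraries and under 0.1% of that level in the other 2 LPS-MIC-1 libraries numbered 25 when replicate 1 was the library set aside, and 3 and 2 when it was replicate 2 or 3. Over the 25 genes, which were chosen for being nearly absent from replicates 2 and 3, the level in replicate 1 had a median of 1.40% of the control mean and of 2.78% of the mean of the 3 libraries labelled LPS, and across these genes it correlated at r = 0.875 with the control and 0.917 with the LPS libraries. Csf3, Nos2 and Rsad2, genes of the inflammatory response, stood in replicate 1 at 2.49% to 2.57% of their LPS mean. They were chosen for levels over 50 FPKM in the LPS libraries, under 1% of that in control and under 0.1% in LPS-MIC-1 replicates 2 and 3, so their place above those libraries follows in part from the choice. The source of these values in replicate 1 was not tested. They widen the spread of the LPS-MIC-1 group for many macrophage genes, so that genes whose groups lay far apart could miss the threshold. Counts without that library are therefore given beside the macrophage lists in which it changed them.

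In all, 2352 genes (21.5% of those tested) were called higher and 2023 (18.5%) lower in the LPS-MIC-1 libraries. A call required an adjusted p under 0.001, by limma's moderated test with Benjamini-Hochberg adjustment, and an absolute log2 fold change over 1 on the log2(FPKM + 0.1) scale, on which changes of low genes are understated. Errors of log2 fold changes are SEs. The 3 libraries of each group did not overlap for 4558 genes (41.7%) that were higher and 4576 (41.8%) that were lower in LPS-MIC-1. With 3 libraries a group, an exact permutation test of a single gene cannot give a p under 0.1. The median log2 fold change over all genes was -0.02. As many as 340 tested genes were at 0 in all control libraries and 79 in all LPS-MIC-1 libraries. For such genes no fold is given, because it would depend on the pseudocount. List medians depend on it as well where members are near 0 in 1 group: with pseudocounts of 0.01 and 1 the median was 10.03 and 5.05 for matrix glycoproteins, 9.40 and 3.80 for collagens, 9.19 and 4.03 for myogenic factors and -7.35 and -4.79 for leukocyte signalling proteins. A gene near 0 in 1 group passes the FPKM filter only through the other group, where it is high, so the filter favours the direction of the counts in the lineage and matrix lists. Without the filter the called higher were 9 of 13 myogenic factors, 35 of 43 myoblast surface genes, 34 of 45 cytoskeletal genes, 29 of 35 matrix glycoproteins and 22 of 28 genes of matrix turnover, and 29 of 43 macrophage surface receptors and 11 of 25 myeloid factors were called lower. The counts of mesenchymal factors and leukocyte signalling proteins were the same without it.

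**Figure D1:**
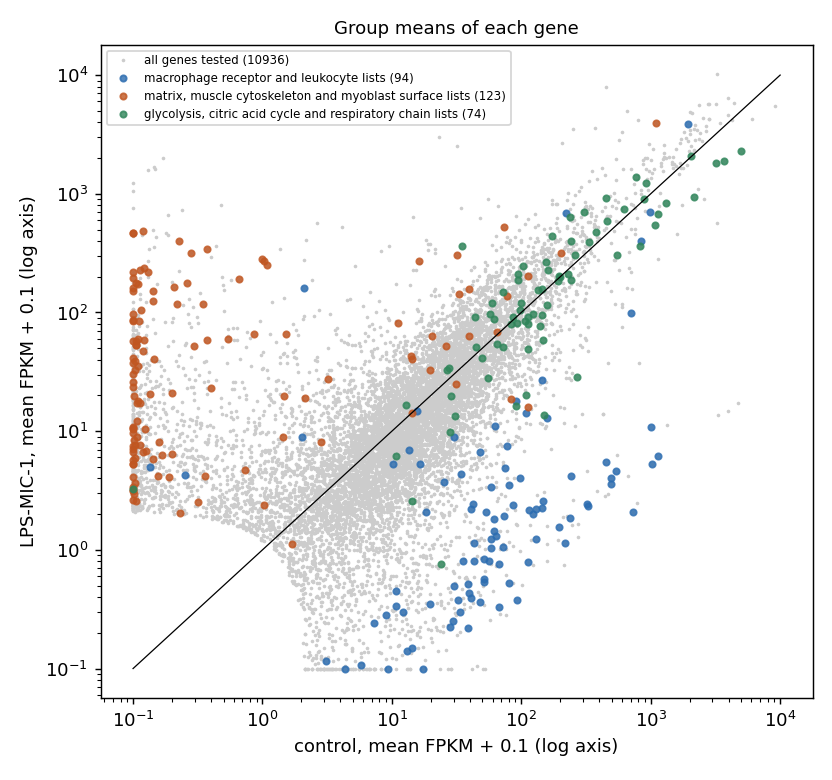
Mean FPKM + 0.1 of each of the 10936 genes in the control libraries (horizontal, log axis) and the LPS-MIC-1 libraries (vertical, log axis), 3 libraries each, with gene lists coloured and the line of equal means drawn. Many matrix, cytoskeleton and myoblast surface genes lie at the left edge near 0.1 in control, most leukocyte genes lie far under the line, and most genes of energy metabolism follow it.

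The 10 largest rises among genes reaching 50 FPKM were Hspb1, Cck, Prl2c3, Timp1, Aldh3a1, Prl2c2, Aqp5, Ankrd1, Bgn and Ly6a. Hspb1, a small heat shock protein of the actin cytoskeleton, was at 0, 0 and 0.135 FPKM in the control libraries and at 1457, 1686 and 1919 FPKM in the LPS-MIC-1 libraries. Cck, the gut and brain hormone cholecystokinin, was at 0, 0 and 0.0948 FPKM in the control libraries and at 1179, 1469.8 and 2147 FPKM in the LPS-MIC-1 libraries. Aqp5, a water channel of glands, was listed at 0 in all 3 control libraries and at 707, 726 and 836 FPKM in the LPS-MIC-1 libraries. Ly6a, the stem cell antigen Sca-1, was listed at 0 in all 3 control libraries and at 385, 399 and 538 FPKM in the LPS-MIC-1 libraries. All 4 were thus nearly silent in one group and among the abundant transcripts of the other. Prl2c2 and Prl2c3, the proliferins, exceeded 890 FPKM in every LPS-MIC-1 library and were listed at 0 in the control libraries, but they are near-identical copies and the split of reads between them is uncertain.

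The 10 largest falls were Mycn, Csf1r, Cldn11, Laptm5, Tyrobp, Nf2, Cd180, Cybb, Pld4 and Cyth4. Mycn, a MYC-family oncogene, was at 785, 779 and 798 FPKM in the control libraries and at 6.72, 0.398 and 0.0445 FPKM in the LPS-MIC-1 libraries (log2 fold change -9.96 ± 1.36, adjusted p = 0.000777). Nf2, the tumour suppressor merlin of the Hippo pathway, was at 52.7, 54.3 and 49.9 FPKM in the control libraries and listed at 0 in all 3 LPS-MIC-1 libraries. Cd180, a Toll-like receptor relative of B cells and macrophages, was likewise at 53.8, 51.1 and 46.7 FPKM in the control libraries and listed at 0 in all 3 LPS-MIC-1 libraries. Cldn11, a tight junction protein of myelin and testis, was at 209, 216 and 212 FPKM in the control libraries and at 1.86, 0.1004 and 0 FPKM in the LPS-MIC-1 libraries (log2 fold change -9.29 ± 1.07, adjusted p = 0.000367). Except for Mycn, Nf2 and Cldn11, these are genes of leukocytes. In Mycn, Csf1r, Laptm5, Tyrobp, Cybb, Pld4 and Cyth4 replicate 1 was the highest of the 3 LPS-MIC-1 libraries.

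Among the most abundant transcripts, Lyz2 and Fxyd2 belonged to the top 10 of the control group alone. Fxyd2, a regulator of the sodium pump, was at 3985, 4005 and 3821 FPKM in the control libraries and at 42.9, 1.31 and 0 FPKM in the LPS-MIC-1 libraries, and with that spread its adjusted p was 0.0034. Lgals1, the galectin of myoblasts and fibroblasts, was at 456, 463 and 431 FPKM in the control libraries and at 7667, 6886 and 9243 FPKM in the LPS-MIC-1 libraries (log2 fold change 4.13 ± 0.13, adjusted p = 1.42e-06). S100a11, a calcium-binding protein, was at 653 ± 33.8 FPKM in the control libraries and 4995 ± 1047 FPKM in the LPS-MIC-1 libraries (SD, n = 3), 7.65-fold higher in LPS-MIC-1. Its relative S100a4 was at 2375 ± 32.8 FPKM in the control libraries and 5645 ± 1168 FPKM in the LPS-MIC-1 libraries and was 2.38-fold higher. Mif, a cytokine abundant in both groups, was at 4155, 4386 and 4213 FPKM in the control libraries and at 3805, 3873 and 4768 FPKM in the LPS-MIC-1 libraries, and the groups overlapped.

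Myogenic factors separated the groups without overlap, but so did most genes tested (41.7% higher and 41.8% lower in LPS-MIC-1). Of 17 listed, 9 passed the FPKM filter, 8 were called higher and 1 lower. Their median log2 fold change (LPS-MIC-1 minus control) was 5.94, and 4 of the 9 were at 0 in all control libraries. Myod1, the factor that commits cells to muscle, was at 0, 0 and 0.0293 FPKM in the control libraries and at 56.7, 49.5 and 55.7 FPKM in the LPS-MIC-1 libraries (log2 fold change 8.95 ± 0.16, adjusted p = 2.45e-07). Myog, which drives differentiation, was listed at 0 in all 3 control libraries and at 23.6, 25.7 and 34.3 FPKM in the LPS-MIC-1 libraries (adjusted p = 4.73e-07). Myf5 was lower than these, at 4.29, 7.08 and 6.56 FPKM, and Tbx1, a factor of head muscle, was at 17.8, 19.5 and 14.6 FPKM in the LPS-MIC-1 libraries. The single fall was Mef2d, a widely expressed partner of MyoD, with 50.3 ± 1.78 FPKM in the control libraries and 15.5 ± 2.68 FPKM in the LPS-MIC-1 libraries (log2 fold change -1.70 ± 0.13, adjusted p = 6.22e-05). The 8 genes that failed the filter included Pax7, Pax3, Myf6, Mef2a and Eya1.

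Mesenchymal and Hippo factors were of the same pattern. Of 27 tested, 25 were called higher and none lower, with a median of 6.49, and 8 of the 27 were at 0 in all control libraries. Twist2, a repressor of late differentiation, was at 0.0436, 0 and 0.0426 FPKM in the control libraries and at 68.2, 74.4 and 88.9 FPKM in the LPS-MIC-1 libraries (log2 fold change 9.24 ± 0.20, adjusted p = 4.33e-07). Hoxc10, which marks hindlimb position, was listed at 0 in all 3 control libraries and at 48.1, 48.8 and 59.6 FPKM in the LPS-MIC-1 libraries. Prrx1, of limb mesenchyme, was at 0.0465, 0.0252 and 0.0103 FPKM in the control libraries and at 39.3, 33.03 and 39.3 FPKM in the LPS-MIC-1 libraries. The Hippo coactivators Yap1 and Wwtr1 and their DNA-binding partners Tead1 to Tead4 were each at or under 0.0515 FPKM in every control library. In the LPS-MIC-1 libraries Yap1 was at 22.9, 22.7 and 23.8 FPKM and Wwtr1 at 19.03, 20.9997 and 23.0002 FPKM. Twist1, the sister gene of Twist2, was listed at 0 in the LPS-MIC-1 libraries. Hmga2, a chromatin protein of embryonic and tumour cells, was present on both sides, with 16.998 ± 0.674 FPKM in the control libraries and 97.1 ± 19.1 FPKM in the LPS-MIC-1 libraries (log2 fold change 2.49 ± 0.15, adjusted p = 1.81e-05). The 2 factors not called were Id3 and Tbx15.

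Myeloid factors were divided. Of 18 tested, 10 were called lower and 1 higher, with a median of -4.29, and without LPS-MIC-1 replicate 1 the counts were 11 lower and 1 higher. Without any 1 control library 5 to 6 were called lower. Sfpi1, which encodes PU.1, was at 376, 393 and 391 FPKM in the control libraries and at 8.60, 0.394 and 0.0834 FPKM in the LPS-MIC-1 libraries. Its groups lay far apart, but the spread of the LPS-MIC-1 libraries left it short of the threshold (log2 fold change -8.71 ± 1.38, adjusted p = 0.00155), and without replicate 1 it was called lower (log2 fold change -10.33 ± 0.42, adjusted p = 2.3e-05). Lyl1, a basic helix-loop-helix factor of blood cells, was at 155, 161 and 157 FPKM in the control libraries and at 1.70, 0.138 and 0.263 FPKM in the LPS-MIC-1 libraries (log2 fold change -8.20 ± 0.74, adjusted p = 0.00012). Irf5 and Irf8, interferon regulatory factors of the myeloid lineage, were 107-fold and 87.7-fold higher in the control libraries.

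Several factors of this list were not lineage-restricted in these libraries. Klf2 was called higher in LPS-MIC-1, with 37.7 ± 2.54 FPKM in the control libraries and 91.7 ± 3.70 FPKM in the LPS-MIC-1 libraries (log2 fold change 1.28 ± 0.07, adjusted p = 1.23e-05). Runx1 was at 26.95, 27.1 and 26.2 FPKM in the control libraries and at 28.3, 31.3 and 24.2 FPKM in the LPS-MIC-1 libraries, and the groups overlapped. Klf4 and Cebpd were higher in each LPS-MIC-1 library than in any control library, by 0.39 ± 0.08 and 0.87 ± 0.17 on the log2 scale, and neither was called. Cebpa, a factor of granulocyte and monocyte progenitors, was at or near 0 in all 6 libraries.

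**Figure D2:**
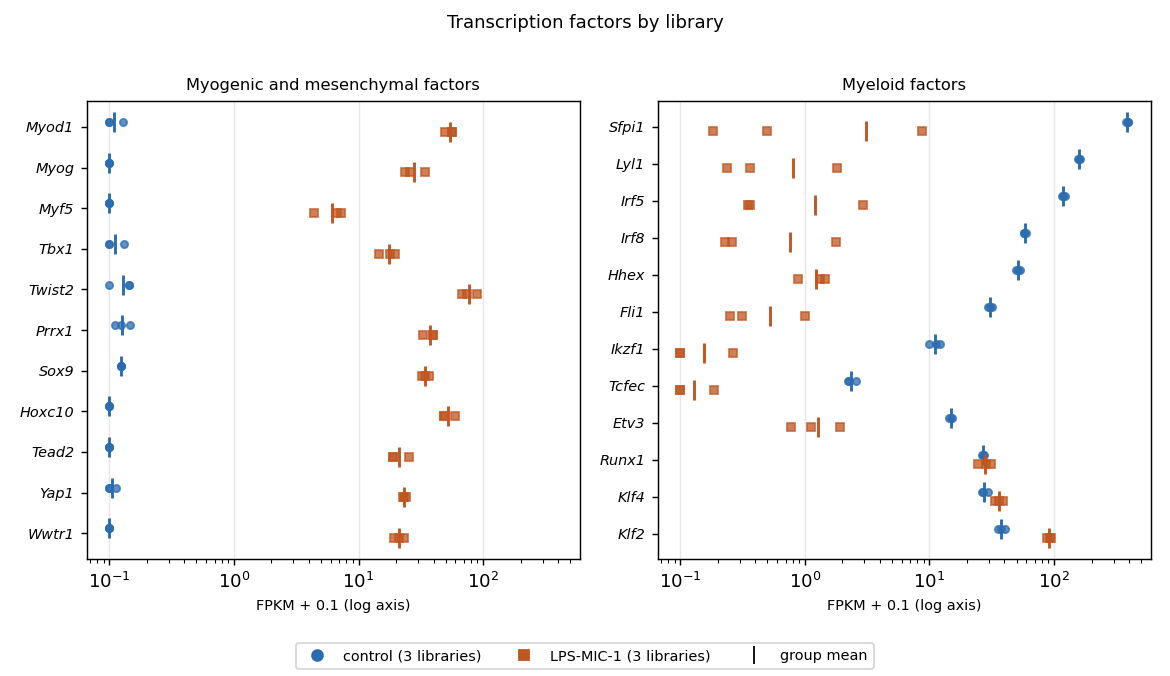
FPKM + 0.1 (log axis) of transcription factors in each of the 3 control (circles) and 3 LPS-MIC-1 libraries (squares), with group means as bars. Most myogenic and mesenchymal factors are near 0.1 in control, most myeloid factors are above 10 in control and under 10 in LPS-MIC-1, and Runx1, Klf4 and Klf2 are present in both groups.

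On the surface, 35 of 38 myoblast receptors and adhesion proteins were called higher in LPS-MIC-1 and 1 lower, with a median of 6.33, and 7 of the 38 were at 0 in all control libraries. Cdh15, the M-cadherin of muscle, was at 0, 0 and 0.0184 FPKM in the control libraries and at 175, 166 and 192 FPKM in the LPS-MIC-1 libraries (log2 fold change 10.71 ± 0.12, adjusted p = 1.49e-07). Itga7, the laminin receptor of muscle, was at 1.11, 0.947 and 0.873 FPKM in the control libraries and at 252, 235 and 273 FPKM in the LPS-MIC-1 libraries (log2 fold change 7.88 ± 0.11, adjusted p = 1.62e-07). Gpc1, a heparan sulphate proteoglycan that binds growth factors, was at 0.218, 0.173 and 0.427 FPKM in the control libraries and at 327, 321 and 370.3 FPKM in the LPS-MIC-1 libraries (log2 fold change 9.89 ± 0.25, adjusted p = 7.46e-07). Ptrf, the cavin that shapes caveolae, was at 0.0493, 0.0163 and 0 FPKM in the control libraries and at 215, 223 and 266 FPKM in the LPS-MIC-1 libraries, and Cav1, the caveolin itself, was at 0.0212, 0.0209 and 0.0207 FPKM in the control libraries and at 44.1, 58.3 and 74.2 FPKM in the LPS-MIC-1 libraries. Chrna1, Chrnb1, Chrnd and Chrng, the 4 subunits of the fetal acetylcholine receptor, were each at 36.9 FPKM or more in every LPS-MIC-1 library and at 0.559 FPKM or less in every control library. Tmem8c, the myomaker protein needed for fusion, was at 0.0472, 0 and 0.0806 FPKM in the control libraries and at 132, 139.7 and 185 FPKM in the LPS-MIC-1 libraries (log2 fold change 10.09 ± 0.26, adjusted p = 7.47e-07).

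Growth factor receptors varied within this list. Fgfr1 was at 0.0218, 0 and 0.0213 FPKM in the control libraries and at 107, 104 and 105 FPKM in the LPS-MIC-1 libraries (log2 fold change 9.86 ± 0.12, adjusted p = 1.49e-07), while Fgfr4 reached at most 0.344 FPKM in any library. Itgb1, the common integrin chain, was present in both groups, with 39.1 ± 0.825 FPKM in the control libraries and 157 ± 6.47 FPKM in the LPS-MIC-1 libraries, and was 4.003-fold higher in LPS-MIC-1. Tgfbr2, a receptor of TGF-beta, was the only member called lower, with 83.7 ± 1.85 FPKM in the control libraries and 18.7 ± 1.42 FPKM in the LPS-MIC-1 libraries (log2 fold change -2.16 ± 0.07, adjusted p = 1.66e-06). Thy1 and Mcam, surface proteins of many mesenchymal cells, were at or under 0.357 FPKM in all 6 libraries.

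Macrophage surface receptors were the counterpart. Of 38 tested, 27 were called lower and 2 higher in LPS-MIC-1, with a median of -6.21, and Csf3r and Sirpa were listed at 0 in all LPS-MIC-1 libraries. A further 8 were lower without overlap but missed the threshold, as did 2553 of the 10936 genes tested. Without LPS-MIC-1 replicate 1, 34 of 39 were called lower, and 15 without replicate 2 or 13 to 14 without 1 of the control libraries. Csf1r, the receptor on which macrophages depend, was at 733, 734 and 705 FPKM in the control libraries and at 5.07, 0.505 and 0.320 FPKM in the LPS-MIC-1 libraries (log2 fold change -9.37 ± 0.94, adjusted p = 0.000191). Tyrobp, the adaptor of activating myeloid receptors, was at 1156, 1145 and 1109.8 FPKM in the control libraries and at 17.02, 0.689 and 0.530 FPKM in the LPS-MIC-1 libraries (log2 fold change -9.12 ± 1.27, adjusted p = 0.000866). Fcer1g, the shared chain of Fc receptors, was at 975, 1048 and 971 FPKM in the control libraries and at 30.5, 1.69 and 0.216 FPKM in the LPS-MIC-1 libraries, with an adjusted p of 0.0031 that became 0.000156 without replicate 1 (-10.4 ± 0.739 on the log2 scale). Csf1r and Tyrobp were thus under 1 FPKM in LPS-MIC-1 replicates 2 and 3.

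Not every receptor of this list separated the groups. The LPS sensor Tlr4 was at 13.4, 13.2 and 14.003 FPKM in the control libraries and at 7.09, 6.08 and 7.28 FPKM in the LPS-MIC-1 libraries, and its fold of 1.99 was just under the size set for a call. Ly96, the partner that holds LPS on Tlr4, was at 13.3, 18.4 and 15.2 FPKM in the control libraries and at 10.7, 15.6 and 17.8 FPKM in the LPS-MIC-1 libraries, with overlap. Cd14, which passes LPS on to that complex, was at 705, 709 and 700.01 FPKM in the control libraries and at 136, 73.8 and 88.3 FPKM in the LPS-MIC-1 libraries (log2 fold change -2.87 ± 0.22, adjusted p = 5.89e-05). All 3 components of LPS recognition were thus present in both groups. Trem2, a lipid-sensing receptor, was at 248, 239 and 238 FPKM in the control libraries and at 4.31, 2.99 and 4.86 FPKM in the LPS-MIC-1 libraries, and here replicate 1 was not the highest of its group. Mertk, which clears dead cells, and Cd40, a co-stimulatory receptor, were the 2 members called higher, with 0.150 ± 0.0416 FPKM in the control libraries and 4.18 ± 0.882 FPKM in the LPS-MIC-1 libraries and 1.90 ± 0.178 FPKM in the control libraries and 8.77 ± 1.65 FPKM in the LPS-MIC-1 libraries respectively.

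Scavenger receptors and lectins gave 8 lower and 1 higher of 14, with a median of -4.66. Without LPS-MIC-1 replicate 1, 12 were called lower, against 7 without replicate 2 or 3 and 6 without any 1 control library. Clec12a, an inhibitory lectin, was at 72.4, 78.3 and 78.2 FPKM in the control libraries and at 0.512, 0.0277 and 0 FPKM in the LPS-MIC-1 libraries (log2 fold change -8.59 ± 0.68, adjusted p = 6.91e-05). Clec7a, the beta-glucan receptor Dectin-1, was at 29.96, 29.2 and 25.9 FPKM in the control libraries and listed at 0 in all 3 LPS-MIC-1 libraries. Colec12, a scavenger collectin, and Scarb1, a receptor of high-density lipoprotein, fell less, by 3.36 ± 0.20 and 3.54 ± 0.07 on the log2 scale. Lgals3, a galectin of activated macrophages, went the other way, with 975 ± 26.8 FPKM in the control libraries and 2611 ± 357 FPKM in the LPS-MIC-1 libraries (log2 fold change 1.41 ± 0.12, adjusted p = 7.79e-05). Mrc1, Cd163 and Marco, receptors of tissue macrophages, were under 1 FPKM in all 6 libraries.

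Inside the cell, leukocyte signalling proteins gave 21 lower and 1 higher of 31, with a median of -6.53. Another 9 were lower without overlap and not called, as were 2553 of the 10936 genes tested. Without LPS-MIC-1 replicate 1, 29 of 31 were called lower, and 11 without LPS-MIC-1 replicate 2 or any 1 control library. Laptm5, a lysosomal regulator of receptor turnover, was at 1018, 1042 and 1016 FPKM in the control libraries and at 14.6, 0.684 and 0.385 FPKM in the LPS-MIC-1 libraries (log2 fold change -9.17 ± 1.27, adjusted p = 0.000846). The phagocyte oxidase, which makes superoxide, had all 5 of its listed subunits at 62.3 FPKM or more in every control library. Cybb was at 217, 220.4 and 209.6 FPKM in the control libraries and at 2.92, 0.149 and 0.0235 FPKM in the LPS-MIC-1 libraries (log2 fold change -8.90 ± 1.16, adjusted p = 0.00064), Ncf1 was at 319, 321 and 331 FPKM in the control libraries and at 6.33, 0.178 and 0.423 FPKM in the LPS-MIC-1 libraries (log2 fold change -8.37 ± 1.15, adjusted p = 0.000796), and Cyba was at 542, 544 and 541 FPKM in the control libraries and at 13.1, 0 and 0.372 FPKM in the LPS-MIC-1 libraries. Cyba missed the threshold with replicate 1 and passed it without (log2 fold change -11.29 ± 0.66, adjusted p = 7.89e-05). Prkcb, a protein kinase C known from B cells, was the 1 gene called higher, and it was at 0.0345, 0.0342 and 0.0338 FPKM in the control libraries and at 4.69, 5.34 and 4.68 FPKM in the LPS-MIC-1 libraries (log2 fold change 5.22 ± 0.15, adjusted p = 1.09e-06).

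Leukocyte actin regulators gave 19 lower and 2 higher of 25, with a median of -5.85, and 21 lower without LPS-MIC-1 replicate 1, against 10 without replicate 2 and 9 to 10 without 1 control library. Fermt3, the kindlin of blood cells, was at 93.9, 93.8 and 91.4 FPKM in the control libraries and at 0, 0.423 and 0.402 FPKM in the LPS-MIC-1 libraries (log2 fold change -8.29 ± 0.66, adjusted p = 6.71e-05), and here replicate 1 was the lowest of its group. Myo1f, a myosin of immune cells, was at 67.6, 67.2 and 66.96 FPKM in the control libraries and at 0.667, 0.0310 and 0 FPKM in the LPS-MIC-1 libraries (log2 fold change -8.29 ± 0.77, adjusted p = 0.000136). Widely expressed members did not show falls of this size. Pfn1, profilin, was at 1927 ± 23.3 FPKM in the control libraries and 3836 ± 578 FPKM in the LPS-MIC-1 libraries, and Tmsb4x, an actin-sequestering peptide, at 979 ± 22.5 FPKM in the control libraries and 708 ± 121 FPKM in the LPS-MIC-1 libraries, neither of them called. Tagln2 and Cnn2, actin-binding proteins of many cells, were called higher, 3.13-fold and 79.8-fold.

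Cytoskeletal genes of muscle and mesenchyme gave 33 higher and none lower of 40, with a median of 5.59, and 6 of the 40 were at 0 in all control libraries. Des, the intermediate filament of muscle, was at 0.277, 0.0171 and 0.0847 FPKM in the control libraries and at 358, 347 and 488 FPKM in the LPS-MIC-1 libraries (log2 fold change 10.93 ± 0.43, adjusted p = 3.53e-06). Ankrd1, a stress-responsive protein of the sarcomere, was listed at 0 in all 3 control libraries and at 469.5, 481 and 455 FPKM in the LPS-MIC-1 libraries. Vim, the intermediate filament of mesenchyme and leukocytes, was abundant in both groups, with 1098 ± 11.4 FPKM in the control libraries and 3935 ± 423 FPKM in the LPS-MIC-1 libraries (log2 fold change 1.84 ± 0.10, adjusted p = 1.61e-05). Tpm1, a tropomyosin, was likewise present in both, with 72.8 ± 1.58 FPKM in the control libraries and 528 ± 39.3 FPKM in the LPS-MIC-1 libraries, 7.25-fold higher in LPS-MIC-1.

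Sarcomere genes of slow, cardiac and fast type were present in the LPS-MIC-1 libraries. Mylpf, a myosin light chain of fast fibres, was at 2.05, 0.351 and 1.39 FPKM in the control libraries and at 313, 265 and 445 FPKM in the LPS-MIC-1 libraries (log2 fold change 8.20 ± 0.59, adjusted p = 4.5e-05). Tnnt3, of fast troponin, was at 0.592, 0 and 0 FPKM in the control libraries and at 52.7, 48.99 and 54.2 FPKM in the LPS-MIC-1 libraries (log2 fold change 8.09 ± 0.78, adjusted p = 0.000159). Tnnt2 and Tnni1, of cardiac and slow troponin, were listed at 0 in the control libraries and at 81.9, 85.1 and 84.7 FPKM and 70.9, 89.2 and 98.1 FPKM in the LPS-MIC-1 libraries. Acta2, smooth muscle actin, was at 0.188, 0.103 and 0.245 FPKM in the control libraries and at 299, 292 and 359 FPKM in the LPS-MIC-1 libraries (log2 fold change 10.18 ± 0.21, adjusted p = 4.1e-07). Acta1, skeletal actin, was at 2.40, 0.0765 and 0.189 FPKM in the control libraries and at 217, 287 and 344 FPKM in the LPS-MIC-1 libraries. In control replicate 1, Acta1 and Myl1 were at 2.40 and 1.68 FPKM, while the other 2 control libraries reached at most 0.189 FPKM for Acta1 and were at 0 for Myl1. The 7 members not called were Tpm4, Myh9, Actn4, Flna, Csrp1, Pdlim5 and Tes, which serve actin in most cells. Pdlim5 was level, with 14.3 ± 0.345 FPKM in the control libraries and 14.2 ± 0.452 FPKM in the LPS-MIC-1 libraries.

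Of 20 collagen genes listed, 14 passed the FPKM filter and were called higher in LPS-MIC-1, with a median of 6.81. All 14 were low in control and passed through the LPS-MIC-1 libraries, and 2 of them were at 0 in all control libraries. Without the filter 15 were called higher and 1 lower of 17. Col3a1, a fibrillar collagen of soft tissue, was at 0.0370, 0 and 0 FPKM in the control libraries and at 252, 191 and 238 FPKM in the LPS-MIC-1 libraries (log2 fold change 10.99 ± 0.18, adjusted p = 2.12e-07). Col1a2, a chain of type I collagen, was listed at 0 in all 3 control libraries and at 112, 89.2 and 87.6 FPKM in the LPS-MIC-1 libraries, while its partner chain Col1a1 was far lower, at 14.3, 7.57 and 9.29 FPKM. Col6a1, of the microfibrils around muscle cells, was at 0.0131, 0 and 0.0128 FPKM in the control libraries and at 43.5, 31.3 and 31.5 FPKM in the LPS-MIC-1 libraries (log2 fold change 8.34 ± 0.18, adjusted p = 4.44e-07). Col18a1, of basement membranes, was the highest of the 14 in the control libraries, at 1.51, 1.26 and 1.33 FPKM.

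The matrix glycoproteins had a median of 8.23, with 28 higher and 1 lower of 31, and 15 of the 31 at 0 in all control libraries. Bgn, the proteoglycan biglycan, was listed at 0 in all 3 control libraries and at 517, 385 and 509.9 FPKM in the LPS-MIC-1 libraries. Sparc, a collagen-binding glycoprotein, was at 0.0203, 0.0201 and 0.0199 FPKM in the control libraries and at 502, 384 and 573 FPKM in the LPS-MIC-1 libraries (log2 fold change 11.96 ± 0.16, adjusted p = 1.62e-07). Nid1, the laminin linker nidogen, was at 0.0509, 0.0252 and 0.0166 FPKM in the control libraries and at 220.03, 214 and 221 FPKM in the LPS-MIC-1 libraries (log2 fold change 10.71 ± 0.12, adjusted p = 1.49e-07). Of the IGF-binding proteins, Igfbp2, Igfbp5 and Igfbp7 lay between 130.1 and 251 FPKM in the LPS-MIC-1 libraries and at or under 0.191 FPKM in control. Igfbp4 went the other way and was the 1 member called lower, with 112 ± 3.36 FPKM in the control libraries and 15.8 ± 3.68 FPKM in the LPS-MIC-1 libraries (log2 fold change -2.83 ± 0.16, adjusted p = 1.64e-05). Lamc1, the laminin chain common to most laminins, was already at 19.5 ± 0.334 FPKM in control and was not called. Fn1, fibronectin, was listed at 0 in all 3 control libraries and at 6.32, 4.99 and 0.781 FPKM in the LPS-MIC-1 libraries, a spread that kept it from the threshold.

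Of 24 genes of collagen processing and matrix turnover, 20 were called higher and 1 lower, with a median of 4.95, and 3 of the 24 were at 0 in all control libraries. Timp1, an inhibitor of matrix metalloproteinases, was at 0.141, 0 and 0 FPKM in the control libraries and at 1493, 1483 and 1843 FPKM in the LPS-MIC-1 libraries (log2 fold change 13.54 ± 0.36, adjusted p = 8.68e-07). Timp2, its relative, was at 2.01, 2.20 and 1.95 FPKM in the control libraries and at 389, 373 and 451 FPKM in the LPS-MIC-1 libraries (log2 fold change 7.55 ± 0.09, adjusted p = 1.49e-07). Pcolce, which speeds the trimming of procollagen, was at 0.444, 0.293 and 0.398 FPKM in the control libraries and at 778, 742 and 914 FPKM in the LPS-MIC-1 libraries, and Serpinh1, the collagen chaperone HSP47, was at 0.0733, 0 and 0.0239 FPKM in the control libraries and at 342, 311 and 382 FPKM in the LPS-MIC-1 libraries. Plod1, a lysyl hydroxylase, was the gene called lower, with 84.8 ± 2.21 FPKM in the control libraries and 37.6 ± 1.95 FPKM in the LPS-MIC-1 libraries. P4ha1, Plau and Adamts1 were not called, and in all 3 the group means differed by 1.40-fold or less.

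**Figure D3:**
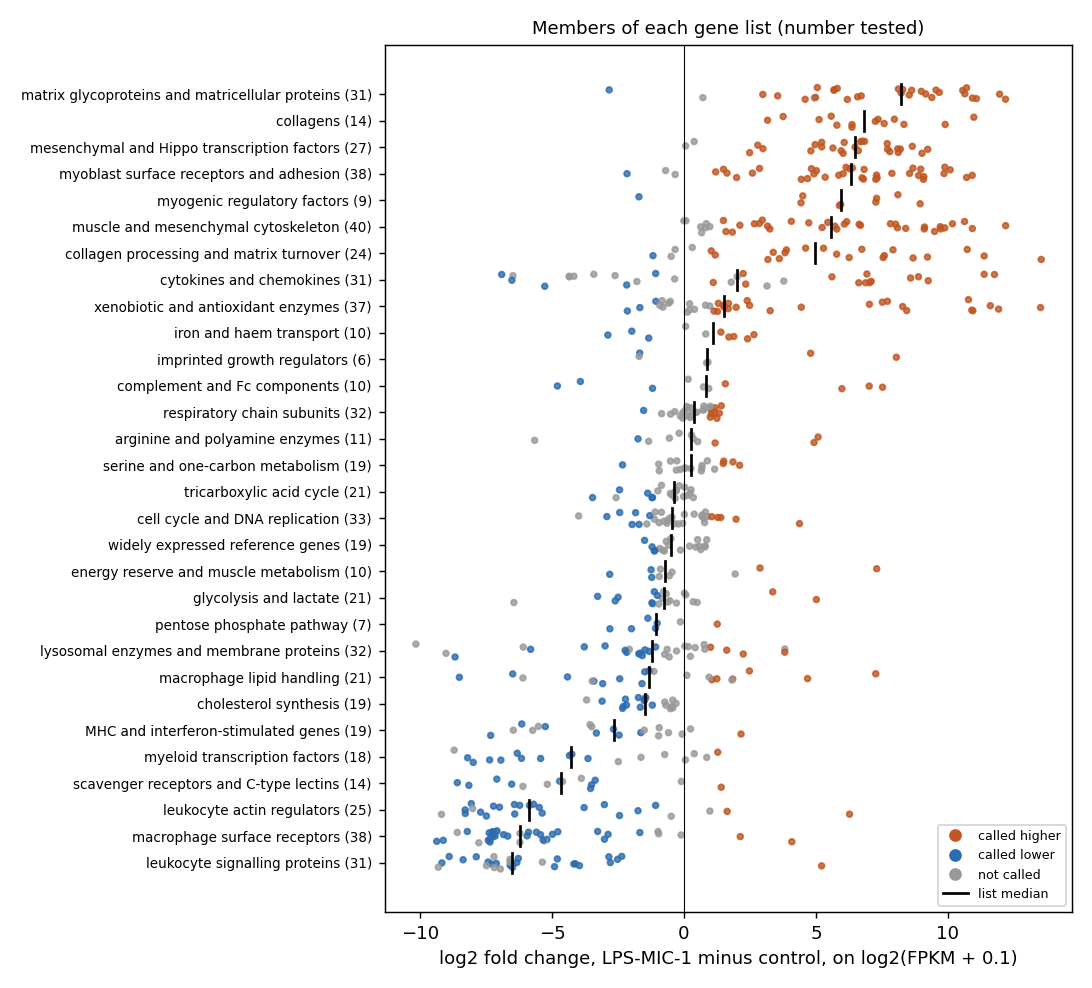
Log2 fold change (LPS-MIC-1 minus control, on log2(FPKM + 0.1)) of each tested member of the gene lists, coloured by call, with the list median as a black line and the number tested in brackets. Lists of matrix genes, mesenchymal and myogenic factors, myoblast surface and muscle cytoskeleton lie to the right with medians from 4.95 to 8.23. Lists of myeloid factors, macrophage surface and scavenger receptors, and leukocyte signalling and actin proteins lie to the left with medians from -6.53 to -4.29. Antigen presentation and interferon genes, at -2.67, and cytokines, at 2.02, lie nearer the middle. Metabolic lists lie between them, with medians from -1.48 (cholesterol synthesis) to 1.53 (detoxifying and antioxidant enzymes).

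Lysosomal genes were mixed, with 12 lower, 4 higher and 16 not called of 32, and a median of -1.20. Without LPS-MIC-1 replicate 1, 15 were called lower, against 9 to 10 without 1 control library. Lyz2 and Lyz1, the lysozymes, were the most abundant, and the split of reads between these near copies is uncertain. Lyz2 was at 4723, 4598 and 4761 FPKM in the control libraries and at 48.8, 1.87 and 0.616 FPKM in the LPS-MIC-1 libraries (log2 fold change -10.16 ± 1.52, adjusted p = 0.00119), and without replicate 1 it was called lower (log2 fold change -11.95 ± 0.43, adjusted p = 1.54e-05). Ctss, a cathepsin of antigen-presenting cells, was at 438, 438 and 444 FPKM in the control libraries and at 7.55, 0.193 and 0.458 FPKM in the LPS-MIC-1 libraries (log2 fold change -8.67 ± 1.19, adjusted p = 0.000808). The cathepsins of most cells differed less: Ctsd was at 955 ± 6.77 FPKM in the control libraries and 1075 ± 76.2 FPKM in the LPS-MIC-1 libraries and Ctsb at 558 ± 13.2 FPKM in the control libraries and 574 ± 57.4 FPKM in the LPS-MIC-1 libraries, neither of them called. Cd63, a tetraspanin of late endosomes, rose to 3541 ± 500.5 FPKM from 249 ± 1.79 FPKM (log2 fold change 3.82 ± 0.11, adjusted p = 1.14e-06). Psap, the precursor of the saposins, was 4.75-fold higher in LPS-MIC-1.

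Glycolysis tended lower in LPS-MIC-1, with 7 called lower, 2 higher and 12 not called of 21, and a median of -0.77. Gapdh was at 4848, 5233 and 4966 FPKM in the control libraries and at 2289, 2111 and 2523 FPKM in the LPS-MIC-1 libraries (log2 fold change -1.12 ± 0.11, adjusted p = 0.00018). Slc16a3, the lactate exporter, had the largest fall of those called, with 272 ± 9.22 FPKM in the control libraries and 28.3 ± 4.87 FPKM in the LPS-MIC-1 libraries (log2 fold change -3.27 ± 0.13, adjusted p = 4.04e-06). Pfkp, the platelet form of phosphofructokinase, was 5.61-fold lower, and Pfkfb3, which makes its activator, was at 14.4, 14.4 and 13.9 FPKM in the control libraries and at 4.09, 1.82 and 1.53 FPKM in the LPS-MIC-1 libraries. The 2 called higher were Eno3 and Ldhb. Eno3, the muscle enolase, was at 33.5, 35.9 and 35.3 FPKM in the control libraries and at 330.3, 343 and 415 FPKM in the LPS-MIC-1 libraries (log2 fold change 3.37 ± 0.10, adjusted p = 1.07e-06), while the ubiquitous Eno1 was level at 2036 ± 27.7 FPKM in the control libraries and 2066 ± 157 FPKM in the LPS-MIC-1 libraries. Ldhb, of the oxidative form of lactate dehydrogenase, was listed at 0 in all 3 control libraries and at 3.08, 3.28 and 3.08 FPKM in the LPS-MIC-1 libraries, and Ldha fell from 2172 ± 41.7 FPKM to 944 ± 149 FPKM. Pkm2, here the older symbol of the whole gene Pkm, and Aldoa were 1.94-fold and 1.75-fold higher in control by their means. Neither was called, nor were the muscle forms Pfkm and Pgam2. The count of 7 rested on every control library, and leaving out any 1 of them gave 3 lower, while quantile normalization gave 11.

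The pentose phosphate pathway, which makes NADPH and ribose, had 5 of 7 genes called lower and 1 higher, with a median of -1.07. Tkt, transketolase, was at 328, 331 and 326 FPKM in the control libraries and at 45.8, 48.2 and 46.6 FPKM in the LPS-MIC-1 libraries (log2 fold change -2.81 ± 0.05, adjusted p = 2.1e-07). Rpia, which isomerises ribose phosphate, was 4.005-fold lower in LPS-MIC-1. Taldo1, transaldolase, which acts beside Tkt, rose, with 247 ± 3.47 FPKM in the control libraries and 594 ± 63.7 FPKM in the LPS-MIC-1 libraries (log2 fold change 1.26 ± 0.09, adjusted p = 3.75e-05). Pgls, the remaining gene, was at 347, 348 and 344 FPKM in the control libraries and at 266, 319 and 371 FPKM in the LPS-MIC-1 libraries, and the groups overlapped. Without LPS-MIC-1 replicate 1, 3 were called lower.

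Citric acid cycle genes, listed together with Idh1, Acly and Irg1, which act beside the cycle, gave 5 lower and none higher of 21. The median was -0.36, and the 5 were Idh1, Idh2, Suclg2, Sdha and Acly. The share called lower was close to the 18.5% over all genes. Without any 1 control library 3 were called lower. Idh1, the cytosolic isocitrate dehydrogenase, was at 149, 149 and 154 FPKM in the control libraries and at 12.96, 12.6 and 15.3 FPKM in the LPS-MIC-1 libraries (log2 fold change -3.46 ± 0.09, adjusted p = 6.88e-07). Acly, which turns citrate into acetyl-CoA for lipids, was at 109.7, 111 and 108 FPKM in the control libraries and at 20.7, 19.9 and 19.6 FPKM in the LPS-MIC-1 libraries (log2 fold change -2.44 ± 0.05, adjusted p = 3.5e-07). The mitochondrial core enzymes Cs and Mdh2 were not called, and Mdh2 was the more abundant, with 456 ± 6.25 FPKM in the control libraries and 586 ± 59.4 FPKM in the LPS-MIC-1 libraries. Irg1, which makes itaconate in activated macrophages, was at 10.7, 10.3 and 10.7 FPKM in the control libraries and at 17.2, 0.564 and 0.402 FPKM in the LPS-MIC-1 libraries, so that only replicate 1 was above the control libraries.

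Respiratory chain subunits gave 8 higher, 1 lower and 23 not called of 32, with a median of 0.37. The share called higher was close to the 21.5% over all genes. Without 1 control library 3 to 4 were called higher, and 5 without LPS-MIC-1 replicate 2 or 3. The 8 higher were Ndufa2, Ndufa4, Ndufs3, Ndufv1, Uqcrb, Uqcrq, Cycs and Cox6c. Cox6c, of cytochrome c oxidase, was at 250.2, 232 and 228 FPKM in the control libraries and at 575, 586 and 747 FPKM in the LPS-MIC-1 libraries (log2 fold change 1.42 ± 0.12, adjusted p = 8.03e-05), and Uqcrb, of complex III, was at 169, 173 and 176 FPKM in the control libraries and at 387, 391 and 555 FPKM in the LPS-MIC-1 libraries (log2 fold change 1.34 ± 0.15, adjusted p = 0.000307). Ndufs8, of complex I, fell, with 28.2 ± 3.16 FPKM in the control libraries and 9.82 ± 2.03 FPKM in the LPS-MIC-1 libraries (log2 fold change -1.53 ± 0.17, adjusted p = 0.000337). Subunits of the ATP synthase were not called. Atp5b was at 882 ± 9.19 FPKM in the control libraries and 909 ± 118 FPKM in the LPS-MIC-1 libraries, and Atp5a1 at 547 ± 3.14 FPKM in the control libraries and 305 ± 32.1 FPKM in the LPS-MIC-1 libraries. The largest of these rises, that of Cox6c, was 2.69-fold. The direction of this list depended on the scaling: with quantile normalization 0 were called higher and 2 lower, with a median of -0.04.

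Serine and one-carbon genes were mostly not called, with 4 higher, 1 lower and 14 not called of 19, and a median of 0.26. Their share called higher was close to the 21.5% over all genes. Without LPS-MIC-1 replicate 2 or 3, 2 were called lower. Slc1a5, the glutamine transporter, fell from 122 ± 2.37 FPKM to 24.3 ± 1.78 FPKM (log2 fold change -2.33 ± 0.07, adjusted p = 1.1e-06), and its relative Slc1a4 rose from 2.09 ± 0.0508 FPKM to 9.45 ± 1.43 FPKM (log2 fold change 2.11 ± 0.14, adjusted p = 2.76e-05). Cholesterol synthesis was lower: of 19 genes, 11 were called lower, none higher, and all 19 had a negative log2 fold change, with a median of -1.48. Insig1, the sterol sensor, was at 61.3, 66.9 and 64.8 FPKM in the control libraries and at 8.10, 7.85 and 6.36 FPKM in the LPS-MIC-1 libraries (log2 fold change -3.10 ± 0.11, adjusted p = 2.07e-06). Fdps, which makes farnesyl diphosphate, was at 276, 292 and 291 FPKM in the control libraries and at 55.8, 59.9 and 75.9 FPKM in the LPS-MIC-1 libraries (log2 fold change -2.18 ± 0.12, adjusted p = 1.46e-05). Srebf2, the transcription factor of the pathway, was at 100.02 ± 2.88 FPKM in the control libraries and 60.5 ± 2.35 FPKM in the LPS-MIC-1 libraries and was not called.

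Genes of lipid handling were split, with 9 lower and 6 higher of 21, and a median of -1.32. Over all genes 18.5% were called lower and 21.5% higher. Without LPS-MIC-1 replicate 1, 11 were called lower, against 8 without any 1 control library. Lpl, lipoprotein lipase, was at 286, 299.7 and 294 FPKM in the control libraries and at 14.8, 12.1 and 14.2 FPKM in the LPS-MIC-1 libraries (log2 fold change -4.41 ± 0.09, adjusted p = 3.49e-07). Ltc4s, which makes leukotriene C4, was at 65.1, 72.7 and 68.3 FPKM in the control libraries and at 0, 0.568 and 0 FPKM in the LPS-MIC-1 libraries (log2 fold change -8.51 ± 0.76, adjusted p = 0.000116). Hpgds, a prostaglandin D synthase, was 93.4-fold lower in LPS-MIC-1. In the opposite direction, Ch25h, which makes 25-hydroxycholesterol, was listed at 0 in all 3 control libraries and at 15.3, 16.4 and 14.3 FPKM in the LPS-MIC-1 libraries, and Ptgs1, the constitutive cyclooxygenase, rose 5.61-fold. Apoe, abundant in many macrophages, was near 0 in control, at 0, 0.270 and 0.356 FPKM, and at 9.79, 4.86 and 5.75 FPKM in LPS-MIC-1. Among genes of energy reserve, Ckb, the brain creatine kinase, was at 225, 216 and 221 FPKM in the control libraries and at 34.1, 28.1 and 32.1 FPKM in the LPS-MIC-1 libraries (log2 fold change -2.81 ± 0.08, adjusted p = 1.04e-06). Ckm, the creatine kinase of mature muscle, was at 1.79, 0.161 and 0.0398 FPKM in the control libraries and at 1.13, 0.963 and 2.88 FPKM in the LPS-MIC-1 libraries, with overlap, and Mb, myoglobin, was at 0.0633, 0 and 0 FPKM in the control libraries and at 18.4, 22.2 and 15.5 FPKM in the LPS-MIC-1 libraries (log2 fold change 7.31 ± 0.26, adjusted p = 2.41e-06). That list held 3 lower and 2 higher of 10, and 1 higher without LPS-MIC-1 replicate 1 or 2 or control replicate 2 or 3. Its share called higher was close to the 21.5% over all genes. With quantile normalization 3 genes of lipid handling were called higher.

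Detoxifying and antioxidant enzymes were mostly higher in LPS-MIC-1, with 23 higher, 3 lower and 11 not called of 37, and a median of 1.53. Aldh3a1, an aldehyde dehydrogenase, was at 0.0355, 0.0701 and 0.104 FPKM in the control libraries and at 1597, 2042 and 2313 FPKM in the LPS-MIC-1 libraries (log2 fold change 13.52 ± 0.20, adjusted p = 2.05e-07). Gsta4, a glutathione transferase, was at 0.193, 0 and 0.0626 FPKM in the control libraries and at 598, 587 and 799 FPKM in the LPS-MIC-1 libraries (log2 fold change 11.93 ± 0.39, adjusted p = 1.79e-06). Gstp1, another, was at 21.7, 24.5 and 22.8 FPKM in the control libraries and at 2696, 2877 and 3537 FPKM in the LPS-MIC-1 libraries, 132-fold higher in LPS-MIC-1. Nqo1, a quinone reductase, was at 0.0366, 0 and 0 FPKM in the control libraries and at 181, 191 and 216 FPKM in the LPS-MIC-1 libraries (log2 fold change 10.78 ± 0.16, adjusted p = 2.09e-07). The factor Nfe2l2 and its inhibitor Keap1, which govern many of these genes, were both lower but not called, with Nfe2l2 at 69.6 ± 1.32 FPKM in the control libraries and 40.6 ± 8.19 FPKM in the LPS-MIC-1 libraries and Keap1 at 35.5 ± 1.01 FPKM in the control libraries and 20.01 ± 2.07 FPKM in the LPS-MIC-1 libraries. Isothiocyanates are known to act on that pair, but in these libraries the treatment and the cell profile cannot be told apart.

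Enzymes that both groups used at higher levels differed less. Txnrd1 and Srxn1 were 2.89-fold and 3.96-fold higher in LPS-MIC-1, Gclm was level at 24.3 ± 0.398 FPKM in the control libraries and 26.7 ± 1.24 FPKM in the LPS-MIC-1 libraries, and Gclc fell 2.08-fold. Hmox1, haem oxygenase, was at 144, 145 and 145 FPKM in the control libraries and at 179, 67.4 and 75.5 FPKM in the LPS-MIC-1 libraries, with only replicate 1 above the control libraries. Mt1 and Mt2, the metallothioneins, were 5.28-fold and 9.64-fold higher. Cat, catalase, and Aldh3b1 were called lower, by 1.67 ± 0.09 and 2.14 ± 0.07 on the log2 scale. The ferritin chains Ftl1 and Fth1 were among the most abundant transcripts of control and were not called.

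Of 10 genes of iron and haem transport, 5 were called higher and 3 lower. Slc11a1, the metal transporter of phagosomes, was at 51.97, 49.4 and 47.3 FPKM in the control libraries and at 12.3, 4.96 and 4.76 FPKM in the LPS-MIC-1 libraries (log2 fold change -2.88 ± 0.37, adjusted p = 0.000597), and Cp, ceruloplasmin, was at 4.44, 5.003 and 4.61 FPKM in the control libraries and at 32.96, 28.2 and 28.9 FPKM in the LPS-MIC-1 libraries (log2 fold change 2.65 ± 0.09, adjusted p = 2.19e-06). Of 11 arginine and polyamine genes, 3 were called higher and 1 lower, with 3 lower without LPS-MIC-1 replicate 1. These counts were near or under the shares over all genes (21.5% higher and 18.5% lower). The median of 0.28 became -0.14 with quantile normalization. Ass1, which recycles citrulline, was at 0.831, 1.20 and 0.913 FPKM in the control libraries and at 33.9, 27.7 and 36.6 FPKM in the LPS-MIC-1 libraries (log2 fold change 4.93 ± 0.17, adjusted p = 2.27e-06), and Oat, ornithine aminotransferase, fell 3.32-fold. Nos2, the inducible nitric oxide synthase, was at 2.28, 1.68 and 3.06 FPKM in the control libraries and at 18.3, 0.483 and 0.297 FPKM in the LPS-MIC-1 libraries. Replicate 1 was above and the other 2 LPS-MIC-1 libraries were below every control library.

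**Figure D4:**
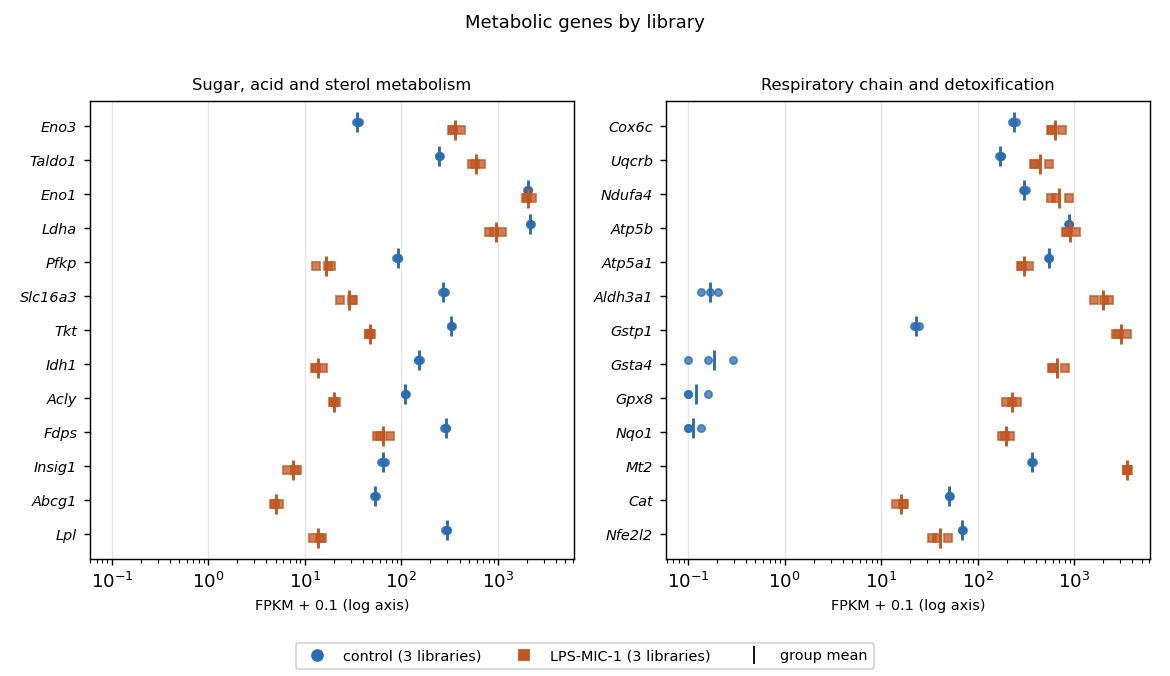
FPKM + 0.1 (log axis) of metabolic genes in each of the 3 control (circles) and 3 LPS-MIC-1 libraries (squares), with group means as bars. Eno3 and the genes from Aldh3a1 to Mt2 are higher in LPS-MIC-1, Slc16a3, Tkt, Idh1, Acly and Lpl are lower, and Eno1 and Atp5b overlap.

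Cytokines and chemokines fell into different sets in the groups. Of 31 tested, 14 were called higher, 5 lower and 12 not called, with a median of 2.02. Cxcl1, a neutrophil attractant, was at 0.0647, 0.0639 and 0 FPKM in the control libraries and at 402, 498 and 574 FPKM in the LPS-MIC-1 libraries (log2 fold change 11.77 ± 0.24, adjusted p = 4.02e-07), and Cxcl5, a related one, was at 0.0680, 0.135 and 0.0333 FPKM in the control libraries and at 457, 386 and 563 FPKM in the LPS-MIC-1 libraries (log2 fold change 11.38 ± 0.24, adjusted p = 4.44e-07). Csf1, the ligand of Csf1r, was at 0.162, 0.160 and 0.114 FPKM in the control libraries and at 119, 121 and 108 FPKM in the LPS-MIC-1 libraries (log2 fold change 8.89 ± 0.12, adjusted p = 1.62e-07), so ligand and receptor were on opposite sides. Ccl7, Ccl8 and Cxcl12, attractants of monocytes and lymphocytes, were at 10.4 FPKM or more in every LPS-MIC-1 library and at 2.44 FPKM or less in control. Il6 was listed at 0 in all 3 control libraries and at 13.6, 9.32 and 14.1 FPKM in the LPS-MIC-1 libraries. Ccl2, a monocyte attractant, was present in both, with 79.9 ± 4.56 FPKM in the control libraries and 383 ± 70.6 FPKM in the LPS-MIC-1 libraries (log2 fold change 2.24 ± 0.14, adjusted p = 2.41e-05). Among the falls, Cxcl16, a chemokine and scavenger receptor, was at 6.09, 13.6 and 20.1 FPKM in the control libraries and listed at 0 in all 3 LPS-MIC-1 libraries, and Cxcl14 was at 16.5, 19.004 and 18.7 FPKM in the control libraries and at 0.670, 0 and 0 FPKM in the LPS-MIC-1 libraries.

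The 12 cytokine genes not called included Tnf, Il1b, Ccl3, Ccl4, Ccl5, Cxcl2, Csf3 and Lcn2, in all of which LPS-MIC-1 replicate 1 was the highest library of its group. Ccl3, the most abundant of the list, was at 721, 727 and 719.8 FPKM in the control libraries and at 447, 14.6 and 9.73 FPKM in the LPS-MIC-1 libraries, and at 17304 ± 574 FPKM in the LPS libraries. Cxcl2 was at 174, 171 and 176 FPKM in the control libraries and at 232, 6.15 and 2.87 FPKM in the LPS-MIC-1 libraries, and at 8367 ± 41.9 FPKM in the LPS libraries. Tnf was at 56.5, 59.9 and 56.4 FPKM in the control libraries and at 13.2, 1.19 and 1.24 FPKM in the LPS-MIC-1 libraries. Without replicate 1 the list had 14 higher and 12 lower of 29, against 5 lower with it, 2 lower without replicate 2 and 3 lower without any 1 control library. Ccl5 was at 5.07, 6.28 and 9.34 FPKM in the control libraries and at 218, 10.3 and 9.03 FPKM in the LPS-MIC-1 libraries, so only replicate 1 stood far above the control libraries.

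**Figure D5:**
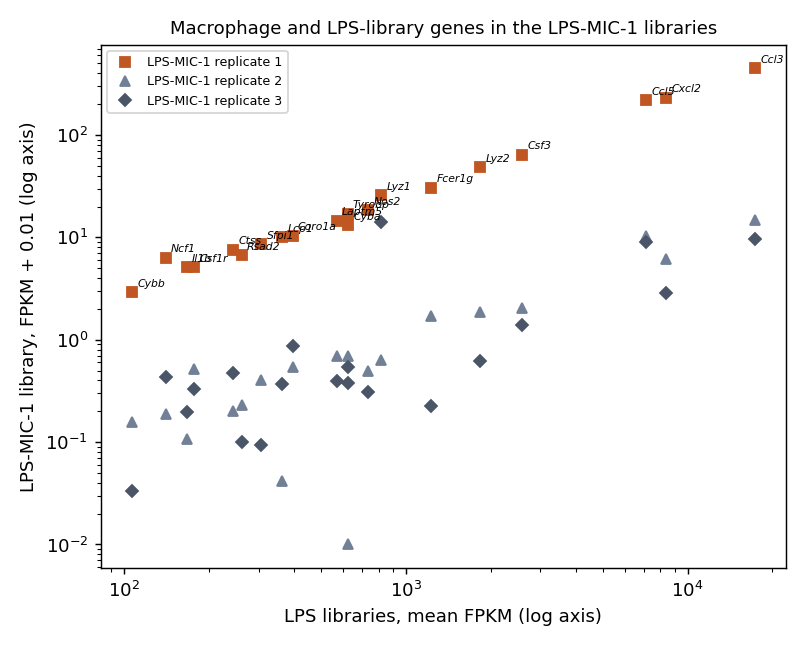
FPKM + 0.01 of 20 macrophage and inflammatory genes, chosen after their values were seen, in each LPS-MIC-1 library (vertical, log axis) against their mean FPKM in the 3 LPS libraries (horizontal, log axis), 1 symbol per LPS-MIC-1 replicate. The squares of replicate 1 rise with the LPS level and stand above replicates 2 and 3 for these genes, while Fermt3, Trem2 and Ltc4s, in which replicate 1 was not the highest, are not plotted.

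Complement genes gave 4 higher and 3 lower of 10, and 0 to 1 lower without 1 control library. Serping1 and C1s, a regulator and a protease of the first component, were each at 11.2 FPKM or more in the LPS-MIC-1 libraries and at or under 0.0366 FPKM in control, whereas Cfp, properdin, was at 72.2, 73.1 and 70.2 FPKM in the control libraries and at 8.16, 6.26 and 1.92 FPKM in the LPS-MIC-1 libraries (log2 fold change -3.92 ± 0.52, adjusted p = 0.000677). C1qa, C1qb and C1qc, abundant in tissue macrophages, were at 3.13 FPKM or less in every library. Of 19 genes of antigen presentation and the interferon response, 7 were called lower and 1 higher, with a median of -2.67. Without LPS-MIC-1 replicate 1, 12 of 17 were called lower, and 5 without replicate 2 or 3 or any 1 control library. Cd74, the invariant chain, was at 542, 557 and 546 FPKM in the control libraries and at 15.6, 1.02 and 2.19 FPKM in the LPS-MIC-1 libraries (log2 fold change -7.32 ± 0.94, adjusted p = 0.0006), although the class II chains H2-Aa and H2-Ab1 were at or under 0.399 FPKM in every library. Psmb8, of the immunoproteasome, was at 72.8, 72.4 and 72.6 FPKM in the control libraries and at 1.41, 0.435 and 1.24 FPKM in the LPS-MIC-1 libraries (log2 fold change -6.15 ± 0.40, adjusted p = 2.76e-05). Ifi204 was the 1 gene called higher, with 3.56 ± 0.268 FPKM in the control libraries and 16.4 ± 2.52 FPKM in the LPS-MIC-1 libraries. The H2 genes belong to a family of close copies, and their values are uncertain.

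Cell cycle genes were divided, with 5 higher, 6 lower and 22 not called of 33, and a median of -0.45, shares at or under those over all genes (21.5% higher and 18.5% lower). Those called lower included the mitotic genes Ccnb1, Ccnb2, Cdc20, Aurkb and Bub1, and those called higher were Ccnd2, Cdk1, Rrm2, Cdkn1a and Cdkn2c. The 5 higher became 2 without LPS-MIC-1 replicate 1 or 3 or any 1 control library, and without replicate 1 Cdk1, Rrm2, Cdkn2c and Aurkb were not called. Ccnb2, a cyclin of mitosis, was at 94.6, 89.4 and 89.1 FPKM in the control libraries and at 16.3, 7.82 and 13.3 FPKM in the LPS-MIC-1 libraries (log2 fold change -2.92 ± 0.26, adjusted p = 0.00012). Ccnd2, a cyclin of early G1, was at 0.490, 0.617 and 0.488 FPKM in the control libraries and at 12.2, 13.8 and 13.1 FPKM in the LPS-MIC-1 libraries (log2 fold change 4.38 ± 0.13, adjusted p = 1.37e-06). Cdkn1a, the p21 inhibitor that rises when myoblasts leave the cycle, was at 119.7, 123 and 119 FPKM in the control libraries and at 281, 268 and 330.3 FPKM in the LPS-MIC-1 libraries (log2 fold change 1.28 ± 0.09, adjusted p = 3.47e-05). Pcna, of the replication fork, was at 268 ± 11.8 FPKM in the control libraries and 468 ± 98.8 FPKM in the LPS-MIC-1 libraries and was not called. Cdkn2a and Cdkn2b, the INK4 inhibitors often lost in cell lines, were listed at 0 in all 6 libraries.

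Imprinted growth genes were mostly silent on both sides: 6 of 17 found passed the filter, and Igf2 and H19 were listed at 0 in all 6 libraries. Sgce, which encodes a sarcoglycan, was listed at 0 in all 3 control libraries and at 25.6, 24.1 and 29.8 FPKM in the LPS-MIC-1 libraries. Genes of the sex chromosomes also differed. Eif2s3y, Kdm5d and Ddx3y, which lie on the Y chromosome, were called lower in LPS-MIC-1, and Uty was lower without overlap. Without LPS-MIC-1 replicate 2 or 3, or any 1 control library, 1 of them was called lower. Eif2s3y was at 34.8, 36.2 and 36.6 FPKM in the control libraries and at 0.740, 0 and 0 FPKM in the LPS-MIC-1 libraries (log2 fold change -7.47 ± 0.85, adjusted p = 0.000347). Xist, the RNA of the inactive X, was at 0.0168, 0.0111 and 0.00823 FPKM in the control libraries and at 39.3, 41.7 and 14.8 FPKM in the LPS-MIC-1 libraries (log2 fold change 8.02 ± 0.42, adjusted p = 1.1e-05). For all 4 Y-linked genes replicate 1 was the highest of the LPS-MIC-1 libraries.

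Of 19 widely expressed reference genes, 4 were called lower and none higher, with a median of -0.49. Their share called lower was close to the 18.5% over all genes. The 19 ranged from -1.49 to 0.87 on the log2 scale. Those called included Gapdh, Eef2 and Sdha, and with quantile normalization 8 were called lower. Eef2, a translation factor, was at 2589, 2610.2 and 2487 FPKM in the control libraries and at 920.2, 845 and 971 FPKM in the LPS-MIC-1 libraries (log2 fold change -1.49 ± 0.09, adjusted p = 1.64e-05). Eef1a1, another, was the most abundant control transcript, at 9145 ± 181 FPKM in the control libraries and 5509 ± 913 FPKM in the LPS-MIC-1 libraries, and was not called. In bulk RNA of this kind, fewer cells of a type and less RNA per cell cannot be told apart.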

How the data were processed

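RNA from mouse cell cultures labelled C2C12 was sequenced in 9 libraries, of which the 3 control and the 3 LPS-MIC-1 libraries were compared here; the 3 LPS libraries served only as a reference level for LPS-MIC-1 replicate 1. The deposited values are FPKM per gene symbol and library, made by the authors from kallisto estimates read with tximport, and the submitters' processing notes name mm9 as the build. How FPKM was computed and the number of reads are not given in the sources used here, so no counting error could be attached. The deposited DESeq2 tables hold the authors' own fold changes and p-values and were not used, and neither was the gastrocnemius table.

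Genes with a mean over 1 FPKM in the 6 libraries were tested on log2(FPKM + 0.1) with limma 3.58.1 (eBayes with trend) in R 4.3.3. A gene was called where its p, adjusted after Benjamini and Hochberg, was under 0.001 and its log2 fold change exceeded 1 in size. FPKM estimates from pseudoalignment can split reads between near-identical genes. The procedure was run on simulated data with the same spread in both groups and control means of at least 1 FPKM. The real groups differed in spread and many genes were at 0 in control, so no support is drawn from that run. Gene lists were described by counts and medians, without a set test. Figures were drawn with Python 3.11.15 and matplotlib 3.10.9. The genes compared and the lists were chosen with earlier results of these data known. Per list, the rule named the 3 most abundant members and, of the called members whose groups did not overlap, the 2 with the greatest rise and the 2 with the greatest fall, and, over all genes, the 10 greatest rises and falls among those reaching 50 FPKM and the 10 most abundant of each group. Any other gene named was chosen after its values were seen, and some genes that the rule selects are not reported here. Alternatives were other pseudocounts, filters, scalings, weights, thresholds, a replicate block and leaving out each library. Promoter motifs were not analysed here, since no sequence was used.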

Additional observations from a re-analysis of the deposited data

How the results depend on the processing

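The number of genes called higher stayed within 1.5 times the 2352 reported under every alternative run, from 1595 (mean over 5 FPKM, 7957 genes tested) to 3075 (no filter, 14822 genes tested). The number called lower, 2023 as reported, was 1549 to 2692 under the alternatives that keep all libraries and use no block. It was 1344 with the replicate number as a block (1905 higher), and leaving out 1 library at a time gave 1326 to 2131: 1339, 1326 and 1336 without control replicates 1, 2 and 3, and 1746 to 2131 without 1 of the LPS-MIC-1 libraries. Leaving out a library or adding the block leaves fewer degrees of freedom. In deviations from group means, libraries with the same number correlated at -0.08, 0.061 and -0.048. Libraries with different numbers correlated at -0.075 to 0.11. With 3 libraries a group these values cannot settle whether the numbers pair the libraries. Of the 246 named genes, 35 lost their call with the block, 10 with library weights, 16 with quantile normalization, 21 with a pseudocount of 0.01, and 34 to 38 without 1 control library. Among the lists the block left 16 macrophage surface receptors, 13 leukocyte signalling proteins, 3 glycolytic, 3 citric acid cycle, 3 cytokine, 1 complement, 1 iron transport and 1 Y-linked genes called lower, and 2 respiratory chain, 2 serine and one-carbon, 3 cell cycle and 1 energy reserve genes called higher. The largest number to gain a call was 14, without LPS-MIC-1 replicate 1. In that setting 13 named genes lost their call, among them Gapdh, Ldha, Acta1, Tnnt3 and Uqcrq. The level of macrophage genes in that library was 1.88% of control over 64 genes when up to 0.5% was allowed in the other replicates. With a minimum of 100 FPKM in control only 13 genes were left, under the 20 required, and no value was computed.

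Direction turned in genes with a small or widely spread log2 fold change, none of them called in the fit reported. With quantile normalization the log2 fold change was -0.43 for Atp5b, -0.52 for Ctsb, -0.35 for Ctsd, -0.45 for Eno1, -0.18 for Flna, -0.24 for Fth1, 0.0128 for Ly96, -0.22 for Mdh2 and 0.13 for Pdlim5. With library weights it was -0.0306 for Atp5b, -0.0209 for Ctsb and -0.01997 for Eno1. It was 0.03798 for Pdlim5 with median-ratio scaling and 0.0185 for Nos2 with a pseudocount of 1. Leaving out 1 library at a time it ranged -0.0677 to 0.0972 for Atp5b, -0.0452 to 0.0821 for Ctsb, -0.04197 to 0.0618 for Eno1, -0.26 to 0.10 for Ly96, -0.15 to 0.0158 for Mif, -2.30 to 0.46 for Nos2, -0.0238 to 0.0217 for Pdlim5, -1.09 to 0.0262 for Rsad2 and -0.0304 to 0.15 for Runx1. The cause of these turns was not tested. Depth limits what can be said of values near 0, most of all in replicate 3 of LPS-MIC-1, and with 3 libraries a group an exact test cannot give a p under 0.1. The motif counts planned for promoters were not run.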
